A study of Mus musculus with 21 samples.

Results

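The replication-dependent histone genes of the mouse were followed in RNA from epidermis. They were taken as all protein-coding genes of the GENCODE M21 annotation whose symbol begins with Hist1h, Hist2h, Hist3h or Hist4h, with 3 pseudogenes of the same naming left out. The rule gave 67 genes, of which 65 were among the 49315 gene identifiers listed for each library. Hist1h2bh and Hist1h2bm were not analysed here. By cluster, 54 genes lie in Hist1 on chromosome 13, 10 in Hist2 on chromosome 3, 2 in Hist3 on chromosome 11 and 1 in Hist4 on chromosome 6. By class, 6 genes encode the linker histone H1, 18 encode H2A, 18 H2B, 12 H3 and 13 H4.

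Core histones H2A, H2B, H3 and H4 form the protein spool around which DNA is wound, and H1 binds the DNA between spools. The replication-dependent genes supply the bulk of these proteins during S phase, when newly copied DNA has to be packed. Their mRNAs are unusual in that they end in a short conserved stem-loop instead of a poly(A) tail. The stem-loop is bound by SLBP, is cut at its 3′ side by a complex guided by the U7 snRNP, and governs the rapid decay of the mRNA when DNA synthesis stops. Dividing cells of the epidermis are found mainly in its basal layer and in the hair follicle. Libraries made from total RNA by ribosomal RNA depletion, as here, do not select for poly(A) tails and so retain these transcripts.

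The study concerns the transcription factors AP-2α (Tfap2a) and AP-2β (Tfap2b) in skin. The labels describe epidermal sheets of mice of 7 groups with 3 samples each, and 8 of the 21 libraries held counts while the other 13 listed every gene at 0. The comparison at 6 months set 3 libraries of genotype K14CreTfap2afl/flTfap2bfl/fl (double cKO) against 3 wild-type libraries labelled as strain-specific controls. In the first group K14Cre, a Cre recombinase driven by the keratin 14 promoter of basal keratinocytes, acts on floxed alleles of both genes, and cells that do not use that promoter, such as immune cells, are not targeted. The labels give the controls as WT and name no Cre or floxed allele for them. The other 2 libraries with counts have the genotype K14CreTfap2bfl/fl (Tfap2b cKO) at 3 weeks of age, and a control of that age was not analysed here.

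Libraries held 11318181 to 17746284 counts. Control replicates 1 and 2 stood apart, with 35794 and 39362 genes at 1 count or more whereas control replicate 3 had 24329 and the others 23454 to 25537. Odorant and vomeronasal receptor genes, which skin is not expected to use, were at 1.61 and 3.19 counts per kb of exon in these libraries, 0.147 in control replicate 3 and 0.097 to 0.195 elsewhere. The same density applied to the tested histone genes came to 1.26%, 1.76% and 0.0524% of their counts in control replicates 1 to 3. Neither floxed gene was lost at the level of whole-gene counts: Tfap2a had 165, 140.3 and 210.1 CPM (counts in each 1000000 of the library) in the controls against 229, 213 and 309 in those labelled double cKO, and Tfap2b 57.3, 86.6 and 71.03 against 53.8, 57.2 and 56.9. A count over the whole gene includes exons outside the deleted part and does not check the label. The labels do not say whether replicates came from separate mice, and p-values then measure the spread between these samples only.

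The stem-loops of the histone mRNAs are shown because they are the feature that sets these transcripts apart from other mRNAs. The search ran over the M21 protein-coding transcripts on the transcript strand, for an arm of 6 bases reading GGNNCT, a loop of 4 bases that begins with TTT, and a second arm that is the exact reverse complement of the first. It found a stem-loop in 44 of the 67 histone genes (65.7%) and in 5 of 21884 other protein-coding genes (0.0228%). Capitals mark the 4-base loop, lower case the 6-base arms, and T stands for U.
Loop TTTC, arm shared by H1, H2A, H2B and H3 genes such as Hist1h1c, Hist1h2ab, Hist1h2bg and Hist1h3d: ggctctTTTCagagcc
Loop TTTA, same arm, in Hist1h3c, Hist1h3e, Hist1h3f, Hist1h2bb, Hist1h2bk and Hist1h1t: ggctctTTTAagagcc
Loop TTTT, same arm, in Hist2h2ac: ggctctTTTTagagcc
Loop TTTC, H4 arm of Hist1h4c, Hist1h4d, Hist1h4f, Hist1h4h, Hist1h4m, Hist1h4n and Hist4h4: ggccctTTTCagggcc
Loop TTTT, same H4 arm, in Hist1h4i and Hist2h4: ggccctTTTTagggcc
Loop TTTC, further H4 arm of Hist1h4b and Hist1h4j: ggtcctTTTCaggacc

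The first arm was found in every class except H4, and the other arms were found only in H4 genes. A stem-loop was found in 4 of 6 H1, 11 of 18 H2A, 10 of 18 H2B, 8 of 12 H3 and 11 of 13 H4 genes. Of the 23 genes without a match, 15 have a gene model of under 450 bases in the count files. No match says only that these letters are not in the annotated transcript.

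Promoters of 4 genes that rose at 6 months, from 4 classes, are printed as the 150 bases before the RefSeq transcription start (GRCm38.p6, written 5′ to 3′ on the gene's strand). Capitals mark matches to the TATA box TATAAA, the CCAAT box and the octamer ATTTGCAT, the sequence that the POU factor encoded by Pou2f1 binds, on either strand.
Hist1h1a, linker histone H1.1, chr13:23763518-23763667, plus strand: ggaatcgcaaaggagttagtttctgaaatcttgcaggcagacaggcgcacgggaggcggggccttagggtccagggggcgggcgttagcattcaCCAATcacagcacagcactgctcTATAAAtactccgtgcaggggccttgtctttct
Hist1h2bk, an H2B gene, chr13:22035671-22035820, plus strand: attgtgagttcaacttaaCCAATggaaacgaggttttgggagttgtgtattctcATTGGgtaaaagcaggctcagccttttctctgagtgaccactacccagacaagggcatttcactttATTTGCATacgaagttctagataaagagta
Hist1h3d, an H3 gene, chr13:23575613-23575762, plus strand: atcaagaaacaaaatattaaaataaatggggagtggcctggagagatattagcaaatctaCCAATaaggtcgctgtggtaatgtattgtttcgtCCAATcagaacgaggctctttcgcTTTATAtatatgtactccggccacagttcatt
Hist1h4k, an H4 gene, chr13:21750554-21750703, minus strand: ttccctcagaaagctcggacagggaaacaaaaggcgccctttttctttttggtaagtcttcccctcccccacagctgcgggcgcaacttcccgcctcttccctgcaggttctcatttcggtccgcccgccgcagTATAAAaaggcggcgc

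Over the 300 bases from 250 before to 50 after the start, RefSeq promoters were matched for 61 of the 67 histone genes. CCAAT was in 85.2% of them against 37.8% of 26964 other genes. It was in all promoters of the H1, H2A, H2B and H3 genes and in 3 of 12 H4 promoters. The TATA box was in 55.7% against 14.1%. The octamer was in 21.3% against 1.71%, in 7 of 18 H2A and 6 of 16 H2B promoters and in none of the H1, H3 or H4 promoters. Neighbouring H2A and H2B genes share part of these windows, so the same site can count for both, as for Hist1h2ah and Hist1h2bk. None of the 3 motifs contains another, both strands were searched, and a match is a description of the sequence and not of a bound site.

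Histone transcripts were more abundant in the libraries labelled double cKO than in the controls at 6 months. Summed over all members, control replicates 1 to 3 had 404, 609 and 695 CPM, whereas double cKO replicates 1 to 3 had 820, 1145 and 1083 CPM. Every double cKO library thus lay above every control, and control replicate 3 was the nearest to them. The ratio of the means was 1.78, and 1.46 against control replicate 3 alone, which had few of the receptor counts seen in the others. These sums are descriptions and were given no test. In RNA from whole sheets, more cells of a type and more RNA per cell cannot be told apart.

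Gene by gene, 50 of the 65 histone genes with values had enough counts to be tested in edgeR's quasi-likelihood fit over 17755 genes. Of all genes tested, 6.26% rose and 8.59% fell in the group labelled double cKO at an adjusted p under 0.05 (14.9% together). Of the histone genes, 15 of 50 (30%) rose, none fell and 35 did not pass. Before adjustment, 28 of the 50 (56%) were higher and 0 lower at a p under 0.05, where 14.5% of all genes tested were higher, and DESeq2 and limma-voom called none lower either. The 15 genes were Hist1h1a and Hist1h1b, Hist1h2ak, Hist1h2be, Hist1h2bf, Hist1h2bj, Hist1h2bk, Hist1h2bl and Hist1h2bn, Hist1h3d, Hist1h3f and Hist1h3g, and Hist1h4f, Hist1h4j and Hist1h4k. All 15 lay higher in each double cKO library than in each control, as did 31 of the 50 tested histone genes (62%), against 22.5% of all genes tested. The median log2 fold change of the tested histone genes was 1.02 against -0.035 over all genes tested. Of these 50 genes, 12 reached 10 counts in all 3 double cKO libraries but not in all 3 controls. The share without overlap and the median draw on them and are not given as support. With 10 counts required in every library, 23 of 36 histone genes (63.9%) were higher at an unadjusted edgeR p under 0.05. None was lower, and 15.6% of all genes tested were higher.

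The number of genes past the threshold depended on single libraries. Of the histone genes, 10, 6 and 29 rose without control replicates 1, 2 and 3, where 577, 448 and 2733 of all genes did (3.15%, 2.47% and 13.0%). Without double cKO replicates 1, 2 and 3, 4, 2 and 6 histone genes rose, and 313, 450 and 547 of all genes (1.47%, 2.14% and 2.6%). The count of all genes thus moved with the same libraries. With control replicate 3 as the only control, none of the histone genes passed in edgeR, 15 of the 52 tested (28.8%) were higher and 0 lower at an unadjusted p under 0.05 against 9.58% of all genes higher, and the median log2 fold change of the tested members was 0.56. That fit assumes that the lone control varies as the double cKO libraries do. No histone gene fell in any of the 19 alternative fits, and none of the 15 had a log2 fold change below 0 in any of them. DESeq2 called 23 histone genes higher, the 15 among them, and limma-voom called 16, of which 13 were among the 15.

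**Figure D1:**
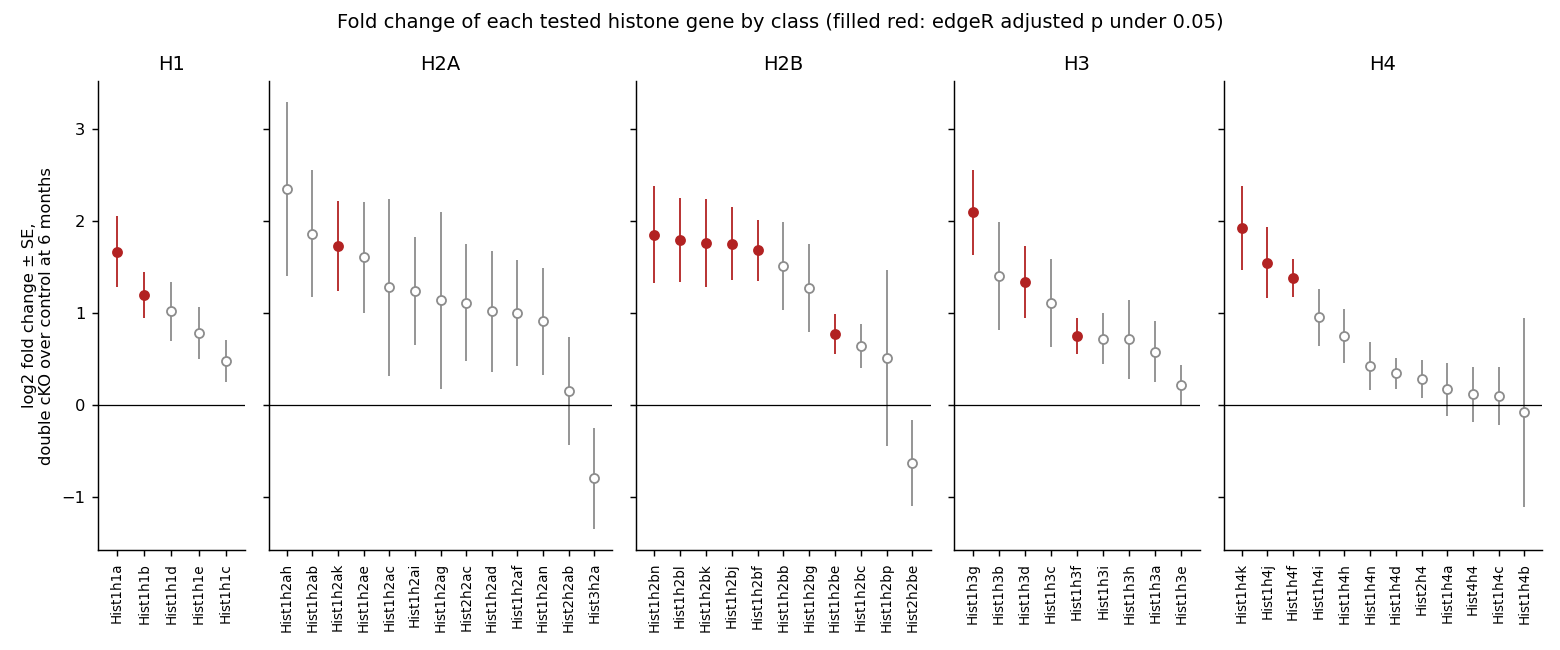
Log2 fold change of each of the 50 tested histone genes, double cKO over control at 6 months (vertical axis, log2 scale), by class. Points are edgeR estimates from 3 against 3 libraries, bars are 1 standard error, and the 15 filled red points passed an adjusted p of 0.05. Most points lie above 0, and those below it belong to Hist3h2a, Hist2h2be and Hist1h4b, whose sign turned in some alternative fits (0.13 and 0.023 with control replicate 3 as the only control for Hist3h2a and Hist2h2be, and 0.68 with limma-voom for Hist1h4b).

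The choice of tested genes bears on these counts. Of the 50 tested genes, 12 reached 10 counts in all 3 double cKO libraries but not in all 3 controls, and they could enter the test through the group in which they are high. They were 10 of the 13 tested H2A genes, Hist1h2bk and Hist1h3g, the last 2 being among the 15. The other 13 of the 15 had 10 counts or more in every control. Of the 15 untested genes, 6 were listed at 0 in all 8 libraries and 9 held at most 20 counts in any library. The 6 were Hist1h2aa, Hist2h2aa1, Hist2h2aa2, Hist2h2bb, Hist2h3b and Hist2h3c1. For all of these except Hist1h2aa, every exon lies within other genes of the count files, so a count of 0 does not show absence. Histone genes are near-identical copies, and reads that fit several of them could be split or lost. At least 60% of 100-base windows were found in no other gene for 29 tested members, of which 9 rose (median log2 fold change 0.78). Among the 21 with fewer unique windows, 6 rose (median 1.24). Genes that reached 10 counts in every library of the double cKO group only are in both sets, most of them in the second. The medians of these sets are therefore not given as support.

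Of 5 tested linker histone genes, 2 rose and none fell. The class sum was 123, 231 and 251 CPM in the controls against 316, 374 and 419 CPM in the double cKO libraries, with no overlap (ratio 1.83). Hist1h1a (ENSMUSG00000049539, chr13:23763717-23764358, plus strand), which encodes H1.1, had 1.99, 3.98 and 6.12 CPM in the controls against 11.2, 18.0 and 12.3 CPM in the double cKO libraries. All 3 control values lay below the lowest double cKO value. The log2 fold change was 1.67 (SE 0.39, adjusted p 0.0201 in edgeR). It did not pass without control replicate 2 or without double cKO replicate 1 or 2.

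Hist1h1b (ENSMUSG00000058773, chr13:21779883-21780625, minus strand) encodes H1.5, a linker histone of dividing cells. It had 8.30, 14.7 and 15.6 CPM in the controls against 26.9, 36.1 and 30.4 CPM in the double cKO libraries, again without overlap. The log2 fold change was 1.19 (SE 0.25, adjusted p 0.0150 in edgeR), and it did not pass without double cKO replicate 2. Every 100-base window of Hist1h1a and Hist1h1b is found in no other gene. The most abundant linker genes per kb of exon were Hist1h1d, Hist1h1e and Hist1h1c, at 109, 108 and 59.5 CPM per kb over the 6 libraries. None of these passed in the fit of 3 against 3.

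Hist1h1d, the gene of H1.3, had 25.4, 57.6 and 71.7 CPM in the controls against 94.4, 118 and 117 CPM in the double cKO libraries. Its groups did not overlap, but control replicate 1 was far below the other controls, and the log2 fold change of 1.02 had an SE of 0.32 (edgeR adjusted p 0.064). Without control replicate 1 or without control replicate 3 it passed. Hist1h1e, the gene of H1.4, had 31.1, 74.5 and 67.6 against 91.2, 107 and 115 CPM (log2 fold change 0.78, adjusted p 0.094). Hist1h1c, the gene of H1.2, had 55.7, 80.2 and 89.6 against 92.05, 94.8 and 144 CPM (0.48, adjusted p 0.172). Hist1h1c took 34.1% of the linker histone CPM over the 6 libraries, the largest share, from a gene model of 1560 bases.

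**Figure D2:**
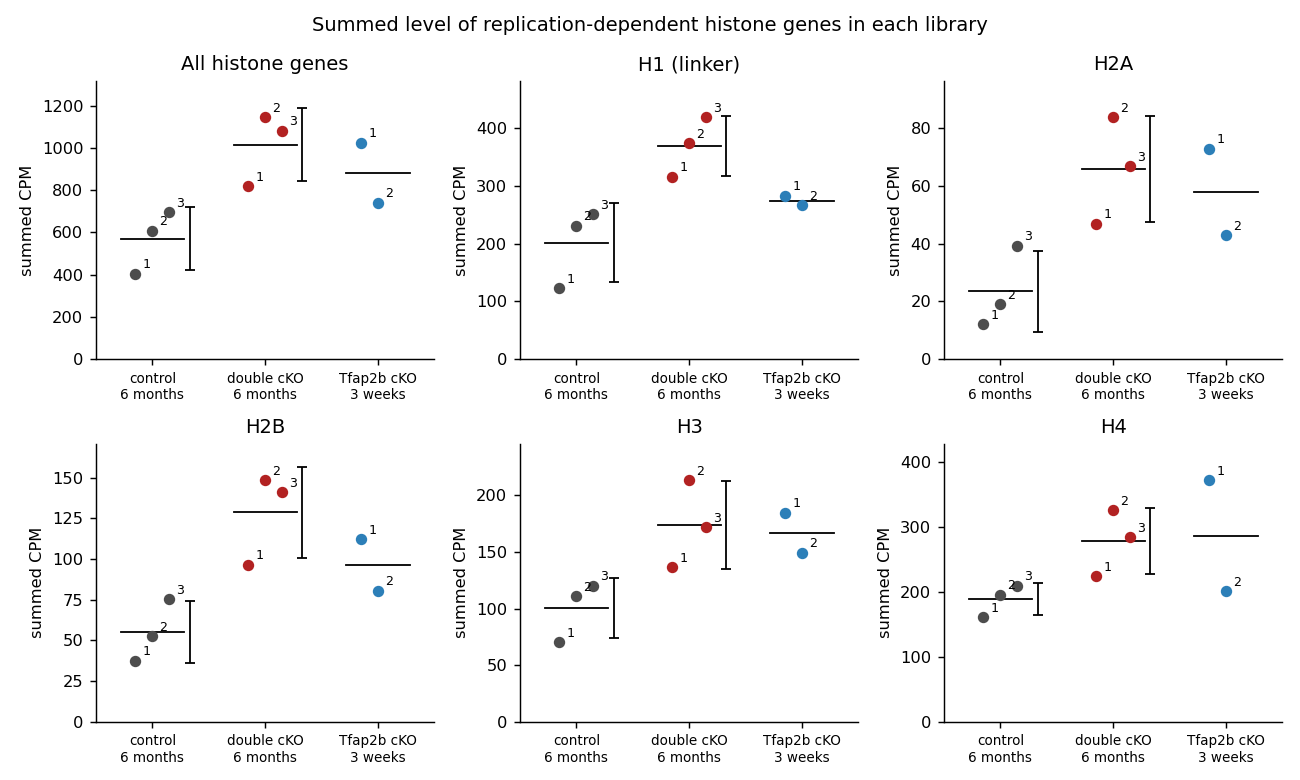
Summed CPM (vertical axes, from 0) of all histone genes and of each class in the 8 libraries. Points are libraries labelled with their replicate number, horizontal lines are group means, and bars at the right of the 6-month groups are ± 1 SD (n = 3). In every panel the 3 double cKO points lie above the 3 control points, and control 3 is the highest control.

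H2A genes had the highest ratio of class sums and the fewest calls. Their sum was 12.1, 18.9 and 39.3 CPM in the controls against 46.9, 83.7 and 66.7 CPM in the double cKO libraries (ratio 2.81, and 1.68 against control replicate 3). Control replicate 3 was at more than the sum of the other controls. Of 13 tested genes, 1 rose and 12 did not pass. Since 10 of the 13 reached 10 counts in every library of the double cKO group only, their median is not given as support. In every tested H2A gene, part of the exon bases lies in another listed gene, from 27.1% in Hist2h2ac to 68.2% in Hist2h2ab. In the tested H1 and H3 genes no exon base does. Reads from the shared parts could be lost, and their part in the H2A values was not tested.

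Hist1h2ak (ENSMUSG00000063021, chr13:21753435-21753827, minus strand) was the most abundant H2A gene at 38.1 CPM per kb and took 30.9% of the class. It had 2.57, 5.30 and 11.9 CPM in the controls against 15.8, 30.4 and 23.9 CPM in the double cKO libraries. The groups did not overlap, and the log2 fold change was 1.73 (SE 0.49, adjusted p 0.0458 in edgeR). The call rested on all 6 libraries except control replicate 3: it was lost when any of the other 5 was left out. Next in abundance were Hist1h2ab and Hist1h2ai, at 13.03 and 12.2 CPM per kb.

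Hist1h2ab had 0.83, 0.71 and 5.79 CPM in the controls against 9.27, 11.2 and 9.19 CPM in the double cKO libraries, a log2 fold change of 1.86 with an SE of 0.69 (adjusted p 0.0945). Here control replicates 1 and 2 held 10 and 8 counts and control replicate 3 held 89, a wide spread among the controls. Every double cKO library still lay above every control. Without control replicate 3 the gene passed, at 3.46. Hist1h2ai had 1.16, 1.59 and 5.27 against 3.40, 9.27 and 7.95 CPM (1.24, adjusted p 0.169), and double cKO replicate 1 lay below control replicate 3. Hist1h2ah, fitted at 2.35 (SE 0.95, adjusted p 0.0794), had 0, 1 and 14 counts in the controls against 36, 36 and 41 in the double cKO libraries. It reached 10 counts in every library of the double cKO group only, so its fold change is that of a gene selected by the group where it is high, and it was singled out after its values were seen.

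H2B genes gave the most calls, 6 of 11 tested, with a class median log2 fold change of 1.51. Among the 6 is Hist1h2bk, which reached 10 counts in every library of the double cKO group only and also enters the median. The H2B sum was 37.5, 52.7 and 75.5 CPM in the controls against 96.6, 149 and 141 CPM in the double cKO libraries (ratio 2.33). Hist1h2bn (ENSMUSG00000095217, chr13:21754123-21754503, plus strand) had 0.83, 3.18 and 5.08 CPM in the controls against 8.76, 16.02 and 11.1 CPM in the double cKO libraries. No control reached the lowest double cKO value, and the log2 fold change was 1.85 (SE 0.53, adjusted p 0.0424 in edgeR). Hist1h2bl (ENSMUSG00000094338, chr13:21715763-21716143, minus strand) had 1.33, 1.68 and 3.97 against 5.50, 10.6 and 10.5 CPM, with a log2 fold change of 1.79 (SE 0.46, adjusted p 0.0279). Both calls were lost without control replicate 2 and without each of the double cKO replicates, and that of Hist1h2bl also without control replicate 1.

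The other 4 H2B genes that rose were Hist1h2bf, Hist1h2bj, Hist1h2bk and Hist1h2be, with log2 fold changes of 1.68, 1.75, 1.76 and 0.77. Hist1h2bf had 2.33, 3.27 and 2.60 CPM in the controls against 6.52, 11.04 and 11.0 CPM (adjusted p 0.0110), and it passed in 18 of the 19 alternatives. Hist1h2be passed in 9 of 19, Hist1h2bj in 15 of 19 and Hist1h2bk in 10 of 18. The most abundant H2B gene was Hist1h2bg, at 54.7 CPM per kb. It had 6.31, 10.2 and 27.5 CPM in the controls against 28.1, 43.8 and 40.7 CPM in the double cKO libraries. Control replicate 3 almost reached double cKO replicate 1, and the log2 fold change of 1.27 did not pass (SE 0.48, adjusted p 0.107). It passed without control replicate 3, at 2.17. Hist1h2bc, next after it, had 9.97, 11.8 and 12.7 against 14.05, 19.1 and 23.7 CPM (0.64, adjusted p 0.0957) and passed without control replicate 3, at 0.86.

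H3 genes rose in 3 of 9 cases, and the sum was 70.5, 111 and 120.4 CPM in the controls against 137, 214 and 172 CPM in the double cKO libraries (ratio 1.73). Hist1h3g (ENSMUSG00000099517, chr13:23535434-23535860, plus strand) had the largest fold change among all 15 genes. With 9, 25 and 32 counts in the controls, it reached 10 counts in every library of the double cKO group only. Its rank is thus that of a gene that could enter the test through the group where it is high. Its values were 0.75, 2.21 and 2.08 CPM in the controls against 5.50, 11.2 and 7.38 CPM in the double cKO libraries, a log2 fold change of 2.09 (SE 0.46, adjusted p 0.0157 in edgeR). All 3 double cKO libraries lay above all controls, and the call was lost without double cKO replicate 2. Hist1h3d (ENSMUSG00000099583, chr13:23575763-23576322, plus strand) had 3.40, 6.27 and 10.6 against 13.8, 24.7 and 16.2 CPM, with a log2 fold change of 1.34 (SE 0.39, adjusted p 0.0464). Its call, like that of Hist1h3f, was lost without any 1 of the 6 libraries except control replicate 3.

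Of the 3 most abundant H3 genes per kb, 1 rose. Hist1h3e, at 44.3 CPM per kb, had 26.3, 35.5 and 38.1 CPM in the controls against 30.8, 49.97 and 41.2 CPM in the double cKO libraries. The groups overlapped and the log2 fold change was 0.21 (SE 0.22, adjusted p 0.523). Hist1h3i, at 41.8 CPM per kb, had 8.64, 15.4 and 13.5 against 15.6, 25.6 and 24.3 CPM (0.72, adjusted p 0.0994), the lowest double cKO value lying just above the highest control. Hist1h3f, at 31.4 CPM per kb, had 16.6, 18.6 and 22.3 against 30.4, 41.2 and 30.7 CPM and passed with a small spread (0.75, SE 0.20, adjusted p 0.0323).

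H4 genes had, in the mean of the controls, the largest sum after H1, and they had the smallest relative difference. They summed to 161, 196 and 209 CPM in the controls against 224, 325 and 284 CPM in the double cKO libraries (ratio 1.47), and 3 of 12 tested genes rose. Hist1h4f (ENSMUSG00000069274, chr13:23551258-23551648, minus strand) had the lowest adjusted p of any histone gene. Its values were 7.56, 8.84 and 8.85 CPM in the controls against 19.6, 24.5 and 25.9 CPM in the double cKO libraries, with narrow spread within each group. The log2 fold change was 1.38 (SE 0.21, adjusted p 0.0037 in edgeR). It passed whichever single library was left out, and with control replicate 3 as the only control it was 1.33 with an adjusted p of 0.058.

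Hist1h4k (ENSMUSG00000064288, chr13:21750194-21750505, minus strand) had 0.91, 3.00 and 4.10 CPM in the controls against 8.76, 12.5 and 12.06 CPM in the double cKO libraries (1.93, SE 0.46, adjusted p 0.0219). Hist1h4j (ENSMUSG00000067455, chr13:21735064-21735837, plus strand) had 2.16, 1.59 and 1.69 against 4.13, 7.57 and 5.86 CPM (1.55, SE 0.39, adjusted p 0.0244). Both lay higher in each double cKO library than in each control, and both calls were lost without control replicate 2 or any 1 of the double cKO libraries. By contrast, Hist1h4d, the most abundant histone gene per kb of all at 211 CPM per kb, had 64.5, 69.9 and 78.3 CPM in the controls against 80.1, 115 and 89.5 CPM in the double cKO libraries. Its log2 fold change was 0.35 (SE 0.17, adjusted p 0.179). Hist1h4n, the second H4 gene at 55.7 CPM per kb, had 12.5, 19.7 and 27.3 against 24.8, 30.9 and 28.5 CPM, with overlap (0.43, adjusted p 0.286). With control replicate 3 as the only control its difference was -0.013.

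The make-up of the histone pool was compared as the share of each class in the summed CPM. H2A took 3.00%, 3.11% and 5.65% of the pool in the controls and 5.72%, 7.31% and 6.16% in the double cKO libraries. H2B took 9.27%, 8.65% and 10.9% against 11.8%, 13.0% and 13.0%. H4 took 39.8%, 32.1% and 30.1% against 27.3%, 28.4% and 26.2%. The groups thus did not overlap for these 3 classes, with control replicate 3 close to the double cKO libraries for H2A and H4. H1 (30.5% to 38.0% against 32.7% to 38.7%) and H3 (17.3% to 18.2% against 15.9% to 18.7%) overlapped. These shares carry no test, and long and short gene models contribute to them by read count. Reads from the parts of H2A genes that lie in other listed genes could be missing from the H2A share.

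The clusters differed in their values, though the difference between clusters was not tested. All 15 genes that rose lie in Hist1, where 44 genes were tested, and none of the 6 tested genes of the other clusters rose or fell in edgeR, DESeq2 or limma-voom, with 0 of the 6 at an unadjusted p under 0.05. The Hist1 sum was 349, 555 and 640.1 CPM in the controls against 772, 1064 and 1019 CPM in the double cKO libraries (ratio 1.85). The Hist2 sum overlapped, at 36.6, 40.6 and 42.4 against 35.1, 60.7 and 51.7 CPM. Its most abundant tested gene, Hist2h4, had 30.6, 31.5 and 36.9 against 30.6, 50.7 and 45.4 CPM (log2 fold change 0.28, edgeR adjusted p 0.372). Of the 10 Hist2 genes, 5 lie wholly within other listed genes and were at 0 in all 8 libraries. The Hist2 values do not cover these 5.

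Hist3h2a (ENSMUSG00000078851, chr11:58954685-58956830, plus strand) had 3.90, 2.47 and 1.30 CPM in the controls against 1.01, 1.64 and 1.80 CPM in the double cKO libraries. Its log2 fold change of -0.80 (SE 0.55, adjusted p 0.313 in edgeR) became 0.13 with control replicate 3 as the only control. With counts at the receptor density subtracted it was -0.71. Hist3h2ba, with 3 to 20 counts per library, was not tested. Hist4h4 (ENSMUSG00000096010, chr6:136801553-136804415, minus strand) had 13.8, 9.37 and 11.2 against 11.2, 19.0 and 9.30 CPM. It overlapped, with a log2 fold change of 0.12 (SE 0.30, adjusted p 0.812) that was -0.0021 without control replicate 2 and -0.20 without double cKO replicate 2.

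Length of the gene model went along with this division, by a threshold chosen after the values were seen. Of the 6 tested histone genes with a model above 1000 bases (Hist1h1c, Hist1h2be, Hist2h2be, Hist2h4, Hist3h2a and Hist4h4), 1 rose and the median log2 fold change was 0.20. Of the 44 shorter ones, 14 rose and the median was 1.13. The 12 genes that reached 10 counts in every library of the double cKO group only are all among these 44. Of the 14 that rose, Hist1h2bk and Hist1h3g are such genes. The median of the shorter genes is therefore not given as support. Over all genes tested, those of up to 500 bases had a median of -0.02. A model that extends past the stem-loop can include reads from poly(A)-tailed forms or from neighbouring transcripts, and their part in the result was not tested.

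Within Hist1, genes that rose were found in each of the stretches that held tested genes. The stretch chr13:21715763-21837530 held 12 tested genes, of which 6 rose, with a median log2 fold change of 1.22. The short stretch chr13:22035164-22043676 held 5, of which 2 rose (median 1.75). The stretch chr13:23531050-23764358 held 27, of which 7 rose (median 1.02). Genes with a high and a low fold change lay side by side in it: Hist1h4f at 1.38 and Hist1h3e at 0.21 have Hist1h1d as the one histone gene between them. Each stretch holds genes that reached 10 counts in every library of the double cKO group only. In the short stretch these are Hist1h2ag, Hist1h2ah and Hist1h2bk. The medians of the stretches are therefore not given as support.

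**Figure D3:**
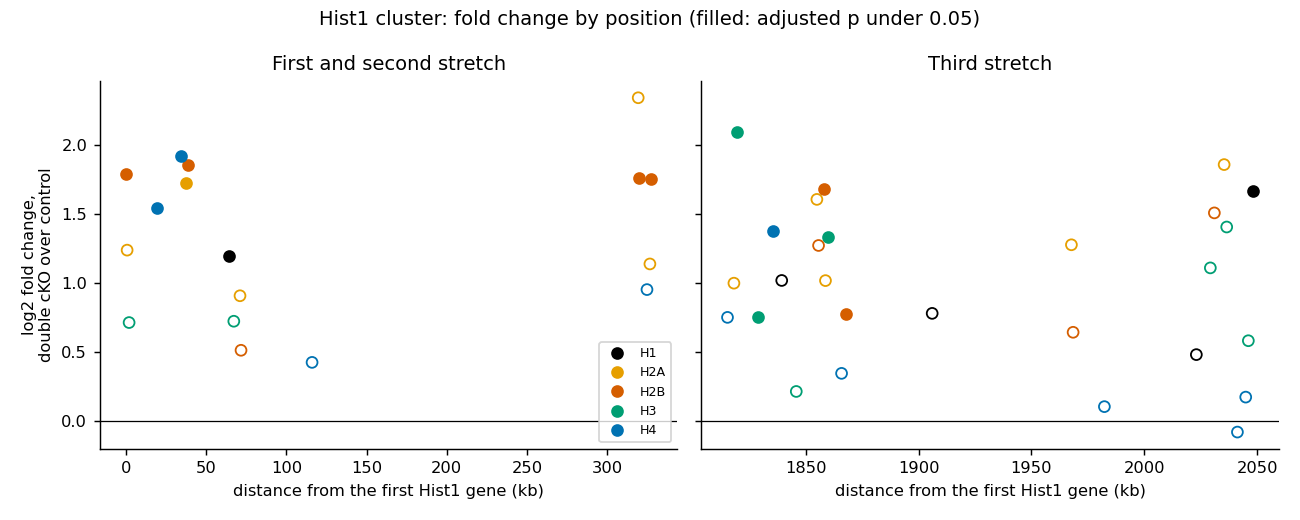
Log2 fold change of the tested Hist1 genes (vertical axis) against their distance in kb from the first gene of the cluster (horizontal axis, the left panel with the first and second stretch and the right panel with the third). Colours give the histone class and filled points passed an adjusted p of 0.05. Filled points occur in all 3 stretches and in every class, and the points nearest 0 are mostly H4 genes.

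Neighbours that start head to head, with a shared stretch of promoter between them, were common: 13 pairs had starts within 1000 bases, 176 to 660 bases apart, and 12 of them joined an H2A and an H2B gene. In 9 pairs both genes were tested, and in 8 of these both had a log2 fold change above 0. Of the 50 tested histone genes, 47 were above 0. Most H2A genes of these pairs reached 10 counts in every library of the double cKO group only, so the signs are not given as support for shared control. Both genes rose in the pair of Hist1h2ak and Hist1h2bn, whose starts are 296 bases apart (1.73 and 1.85). In 4 of the 9 pairs 1 gene rose, and in each it was the H2B gene. Hist2h2ac and Hist2h2be, 239 bases apart, had values of 1.11 and -0.63, neither past the threshold, and the second was 0.023 with control replicate 3 as the only control.

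The testis histone genes were at or near the limit of detection. Hist1h1t, the linker histone of male germ cells, had 6, 2 and 2 counts in control replicates 1 to 3, 0 in each double cKO library and 3 in each Tfap2b cKO library. The receptor density predicts 1.17, 2.33 and 0.107 counts for it in the controls. Hist1h2ba, the testis H2B gene, had 4 counts in control replicate 2 and 0 elsewhere, and Hist1h2aa had 0 in all 8 libraries. A count of 0 allows up to 3 counts, which is 0.169 to 0.265 CPM over the 8 libraries, for counting error only. Of the germ cell markers, Tnp1 was at 0 in all libraries and Ddx4 had 15, 25 and 3 counts in the controls against 0 in the double cKO libraries.

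Genes that make and degrade histone mRNA are given next. Of 16 genes for 3′ end processing and decay, 2 rose, 1 fell and 13 did not pass (median log2 fold change 0.13), beside 6.26% higher and 8.59% lower of all genes tested. Cpsf3, the endonuclease of the cleavage complex, had 21.3, 21.7 and 18.03 CPM in the controls against 38.1, 36.3 and 31.2 CPM in the double cKO libraries (0.71, edgeR adjusted p 0.0261). Srrt, the cap-binding partner ARS2, had 50.7, 62.7 and 89.4 against 129, 109.6 and 113 CPM (0.72, adjusted p 0.0360). Tut4, a terminal uridylyltransferase, was the one that fell, from 95.2, 73.3 and 97.9 to 42.4, 33.5 and 36.3 CPM (-1.32, adjusted p 0.0016). All 3 had groups that did not overlap.

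Slbp, which encodes the stem-loop binding protein, had 50.9, 27.5 and 22.7 CPM in the controls against 17.2, 20.5 and 21.2 CPM in the double cKO libraries. Control replicate 1 was the highest by far, and the log2 fold change of -0.85 did not pass (SE 0.29, adjusted p 0.0795 in edgeR). Of 8 genes for the histone locus body and histone promoters, E2f1, an activator of S phase genes, rose (2.16, 2.30 and 1.30 against 8.62, 7.84 and 6.20 CPM, log2 fold change 1.83, adjusted p 0.0103). Pou2f1, the octamer-binding factor, fell (113, 93.7 and 109.7 against 78.3, 83.9 and 66.7 CPM, -0.54, adjusted p 0.0347). Npat, the coactivator that organises the histone locus body, had 92.3, 69.1 and 78.5 against 74.2, 76.8 and 74.2 CPM (-0.17, adjusted p 0.465). Over all genes tested, 6.26% rose and 8.59% fell.

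Genes listed as replication-independent histone variants and histone chaperones were followed beside the members. Of 11 such variants, 2 rose, none fell and 9 did not pass, with a median log2 fold change of 0.045. H2afx, the variant phosphorylated at DNA breaks, had 3.99, 8.75 and 7.10 CPM in the controls against 15.6, 20.3 and 21.2 CPM in the double cKO libraries (1.44, edgeR adjusted p 0.0135). Cenpa, the centromeric H3, had 4.15, 3.80 and 6.32 against 16.7, 20.999 and 14.1 CPM (1.75, adjusted p 0.0045). The most abundant variant, H3f3b, which encodes H3.3, had 442, 580.4 and 548 against 380, 322 and 448 CPM (-0.52, adjusted p 0.0565). Of 15 chaperones, 3 rose and none fell: Asf1b at 1.71, the CAF-1 subunit Chaf1a at 1.12 and the FACT subunit Ssrp1 at 0.50. The counts of both lists stand beside 6.26% higher and 8.59% lower over all genes tested.

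Many genes of the cell cycle rose as well, and their values stand beside the histone sums. The share over all genes tested was 6.26% higher and 8.59% lower. All 10 G2 and M phase genes rose, Mki67 from 40.5, 74.9 and 113 to 198, 267 and 202 CPM (1.47, edgeR adjusted p 0.0226) and Top2a from 29.1, 38.5 and 46.7 to 86.6, 107 and 71.8 CPM (1.14, adjusted p 0.0082). Of 20 S phase genes, 7 rose and none fell. They were the 6 replicative helicase subunits Mcm2 to Mcm7, with log2 fold changes from 0.62 for Mcm4 to 1.54 for Mcm5, and the ligase Lig1 at 0.88. Pcna, the polymerase clamp, had 47.5, 26.9 and 38.5 against 29.6, 39.3 and 25.9 CPM (-0.33, adjusted p 0.368).

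The histone sum, the G2 and M phase sum and the S phase sum ranked the libraries differently. The G2 and M phase sum was 98.1, 152 and 213 CPM in the controls against 407, 530.5 and 392 CPM in the double cKO libraries, a ratio of 2.87. The S phase sum was 337, 282 and 312 against 443, 435 and 392 CPM, a ratio of 1.36. In the controls the histone sum and the G2 and M phase sum were lowest in replicate 1 and highest in replicate 3, while the S phase sum was highest in replicate 1. Per CPM of the G2 and M phase list there were 4.12, 3.998 and 3.26 CPM of histone transcripts in the controls and 2.02, 2.16 and 2.76 in the double cKO libraries, with no overlap. Per CPM of the S phase list there were 1.20, 2.16 and 2.23 against 1.85, 2.64 and 2.76, with overlap. The part of cell division in the histone result was not tested.

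**Figure D4:**
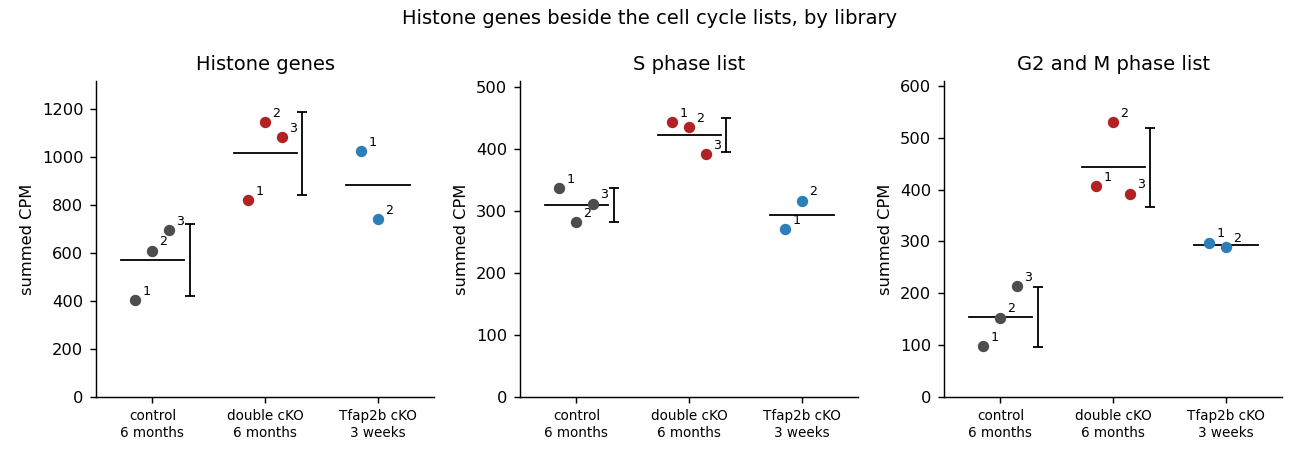
Summed CPM (vertical axes, from 0) of the histone genes, of 20 S phase genes and of 10 G2 and M phase genes in the 8 libraries. Points are libraries with their replicate number, lines are group means and bars ± 1 SD (n = 3) for the groups at 6 months. The double cKO points lie above the control points in each panel, by the widest margin for the G2 and M phase list.

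Markers of the cell types in the sheets also differed between the groups, where 6.26% of all genes tested rose and 8.59% fell. Of 7 basal keratinocyte markers 5 rose (list sum 8224 to 10485 CPM in the controls against 15753 to 18754 CPM in the double cKO libraries). Of the other 2, 1 had a log2 fold change of -1.39, with every double cKO library below every control. Of 4 wound keratinocyte markers 3 rose (452 to 715 against 3301 to 4197 CPM). Of 5 dermal fibroblast markers 3 fell (51.6 to 156 against 11.7 to 22.9 CPM), as did 2 of 4 sebaceous gland markers (735 to 881 against 192 to 236 CPM). Another sebaceous gland marker had a log2 fold change of 0.58, with every double cKO library above every control, and did not pass. Of 4 neutrophil markers 2 were tested and neither passed (0.52 to 3.71 against 6.75 to 243 CPM), with Ly6g at 1 count in double cKO replicate 1 and 0 in the other double cKO libraries and Mpo at 0 in all 3. Of 3 skeletal muscle markers Acta1 was the one tested, and it fell (sum 3.26 to 9.22 against 0.51 to 1.09 CPM). Suprabasal, hair shaft, T cell, Langerhans cell, B cell, melanocyte, endothelial and red blood cell marker sums overlapped. Among the suprabasal markers 1 rose, and log2 fold changes ran from -1.27 to 1.05. All 6 hair shaft markers were below 0 without passing, 4 of them with groups that did not overlap. The part of these differences in the histone result was not tested.

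The Tfap2b cKO libraries at 3 weeks had no control of their age analysed here, and no test was made on their histone values. The summed histone CPM was 1025 in replicate 1 and 739.8 in replicate 2. The most abundant genes per kb of exon in their mean were Hist1h4d at 265 CPM per kb, Hist1h1d at 93.03 and Hist1h1e at 90.8. Hist1h4d alone had 131 and 77.5 CPM, and H4 took 36.3% and 27.1% of the pool. The libraries differed in their cell types: dermal fibroblast markers summed to 2540 CPM in replicate 1 and 17.3 in replicate 2, sebaceous gland markers to 8493 and 542, and red blood cell markers to 224 and 4.40. The part of these cells in the histone values was not tested.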

How the data were processed

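Members and gene lists were chosen with earlier results of these data known. The authors deposited whole-number counts per Ensembl gene, not normalized. Per the submitters' processing notes, Trimmomatic 0.36, STAR 2.5.2b and featureCounts of Subread 1.5.2 were used, with GRCh38 and GRCm38 named as builds. The use of strand and of multi-mapping reads is not given in the sources used here. Of 49315 identifiers, 49056 were found in GENCODE M21. Total RNA was depleted of ribosomal RNA, per the labels' protocols.

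Counts of the 6 libraries at 6 months were fitted in edgeR 4.0.16 under R 4.3.3, with filterByExpr, TMM scaling, robust glmQLFit at a prior count of 2, glmQLFTest, Benjamini-Hochberg adjustment over all 17755 genes and a threshold of 0.05. CPM are counts per 1000000 library counts without TMM factors. DESeq2 1.42.0 and limma 3.58.1 (voom) were alternatives. The steps were tested on simulated data. The 13 libraries at 0 were left out. Replicate numbers did not pair the samples. Control replicate 3 alone, and TMM-scaled sums, were alternatives added after seeing the data.

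Genes named with values were, in each class, the 3 with the highest CPM per kb, the 2 largest rises among genes past the threshold, the testis genes, and the members of Hist3 and Hist4; others are named as chosen after their values were seen. Of the lists, genes past the threshold and an abundant one not past it were named.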

Additional observations from a re-analysis of the deposited data

Results flagged for a closer look

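The following values come from libraries outside the comparison at 6 months and lay above the highest strain-specific control at 6 months. Both libraries of the Tfap2b cKO at 3 weeks had summed histone CPM (1025 and 739.8 in replicates 1 and 2) above the highest of those controls (695). The same held for H1 (283 and 266, highest control 251), H2A (72.8 and 42.8, highest control 39.3), H2B (112 and 80.6, highest control 75.5) and H3 (185 and 149, highest control 120.4). The groups differ in age as well as genotype, so age and genotype cannot be told apart. Replicate 1 also had dermal fibroblast markers at 2540 CPM and sebaceous gland markers at 8493 CPM, against 17.3 and 542 in replicate 2 and at most 156 and 881 in those controls, and their part in these values was not tested. For H4, replicate 1 lay above the highest control (372 against 209) and replicate 2 below it (200.8). Groups of 3 are too small for the test of single libraries that lie far from their group.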

How the results depend on the processing

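Histone genes higher past the threshold numbered 31 without a filter on low counts, 23 with DESeq2, 8 with all 8 libraries in one fit and 0 with control replicate 3 as the only control, against 15. Leaving out single libraries gave 2 to 29. All genes past the threshold numbered 4809 without the filter, 1548 with all 8 libraries, 437 with control replicate 3 only, and 668 to 7544 with single libraries left out, against 2637. Total counts without further factors gave 1376 higher and 1327 lower genes, against 1111 and 1526. With the replicate number as a block, 1729 genes passed and 15 histone genes, 11 of them shared with the 15. Same-numbered libraries did not deviate together (correlations 0.027, -0.161 and -0.059). No histone gene fell in any of these fits.

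Sums by class kept their direction with each library left out and with TMM factors: the ratio ranged from 1.57 to 1.96 over all genes, 2.15 to 3.21 for H2A and 1.35 to 1.62 for H4. The sign turned for these genes: Hist1h4n was -0.013, Hist3h2a 0.13 and Hist2h2be 0.023 with control replicate 3 only, Hist1h4b was above 0 in 8 alternatives (at most 0.68, with limma-voom), and Hist4h4 was -0.0021 without control replicate 2 and -0.20 without double cKO replicate 2 (-0.20 to 0.35 over single libraries left out). Of the other values of genes named by the rule under the alternatives, 360 kept their side of the threshold, 61 lost it and 29 gained it. The cause was not tested.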
